A study of Mus musculus with 3 samples.

Results

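The genes described here are 9 that make, pack or specify catecholamines: the enzyme genes Th, Ddc, Dbh and Gch1, the vesicular transporter genes Slc18a1 and Slc18a2, and the transcription factor genes Phox2a, Hand2 and Gata3. They were taken by symbol from the aliases in the deposited gene table, where each matched 1 gene cluster, and are 9 of 26812 genes in all. The RNA came from CAD cells, a mouse neuroblastoma line derived from the catecholaminergic tumour line Cath.a, and was poly(A)-selected 72 h after transfection. The 3 groups had received control ON-TARGETplus siRNAs, siRNAs specific for Ptbp1, or siRNAs specific for Ptbp1 and for Ptbp2. Each group was 1 library of a single established line, so no p-value is given. All intervals below are 95% intervals for counting error and leave out variation between cultures. The libraries were PCR-amplified and carry no molecular identifiers, so reads may be copies of 1 molecule and the intervals too narrow. In bulk RNA, a change in the number of expressing cells and a change in RNA per cell cannot be told apart.

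Catecholamines are made from tyrosine in a short chain. Tyrosine hydroxylase, the product of Th, makes L-DOPA in the rate-limiting step and needs tetrahydrobiopterin, whose synthesis begins with the Gch1 product. The decarboxylase encoded by Ddc turns L-DOPA into dopamine, the vesicular monoamine transporters encoded by Slc18a1 and Slc18a2 carry it into vesicles, and dopamine beta-hydroxylase, from Dbh, turns it into noradrenaline inside them. Phox2a encodes a homeodomain factor required in noradrenergic neurons, and Hand2 and Gata3 encode factors of the sympathetic lineage that help to maintain the enzyme genes. Ptbp1 encodes a splicing regulator that binds pyrimidine-rich RNA and is high outside neurons, and Ptbp2 its neuronal paralogue.

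The control, Ptbp1 siRNA and double siRNA libraries held 16011365, 16899510 and 14242557 reads in gene clusters, and a level of 1 CPM (scaled reads as a share of the library) stood for 15.3, 17.0 and 14.3 reads. As a check of the labels, Ptbp1 had 7191, 1486 and 1516 reads, which is 5.38-fold (5.09 to 5.70) and 4.44-fold (4.20 to 4.69) below the control. Ptbp2, with 784, 3044 and 633 reads, was 3.49-fold higher after Ptbp1 siRNA (3.23 to 3.78) and 1.16-fold lower than the control after both (1.04 to 1.29). The double knockdown library thus had Ptbp2 RNA near its control level, against 179 CPM after Ptbp1 siRNA alone.

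The 9 genes did not move together. Dbh was about 2-fold higher in both knockdown libraries, and Phox2a was higher mainly after both siRNAs. Th, Gch1, Slc18a2, Hand2 and Gata3 stayed within 1.5-fold of the control in both libraries. The intervals of Slc18a2 reached beyond that, to 1.58 after Ptbp1 siRNA and 1.68 after both. Ddc was lowest after Ptbp1 siRNA, and Slc18a1 was lowest after both siRNAs. Calls rest on size: log2(CPM + 1) had to differ by 1 or more in either direction, with at least 1 CPM in the higher library and a CPM ratio whose interval left out 1. By this rule 0 of the 9 genes were called after Ptbp1 siRNA, where 0.738% of 13281 tested genes were called (0.279% higher and 0.459% lower). After both siRNAs 2 of 9 were called against the control, Dbh and Phox2a, both higher, where 3.78% of 13301 tested genes were called (1.07% higher and 2.71% lower). Between the knockdown libraries 0 of 9 were called, beside 0.45% of 13336 (0.105% higher and 0.345% lower). The median difference of the 9 genes was 0.11 after Ptbp1 siRNA, 0.07 after both and 0.16 between the knockdowns, and the median of all tested genes was -0.01, -0.01 and -0.0049. These medians hide the spread, since single members ranged from -0.69 to 0.98, from -0.88 to 1.21 and from -0.99 to 0.81 in the 3 comparisons. The comparisons share libraries, so their values are not independent of each other.

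**Figure D1:**
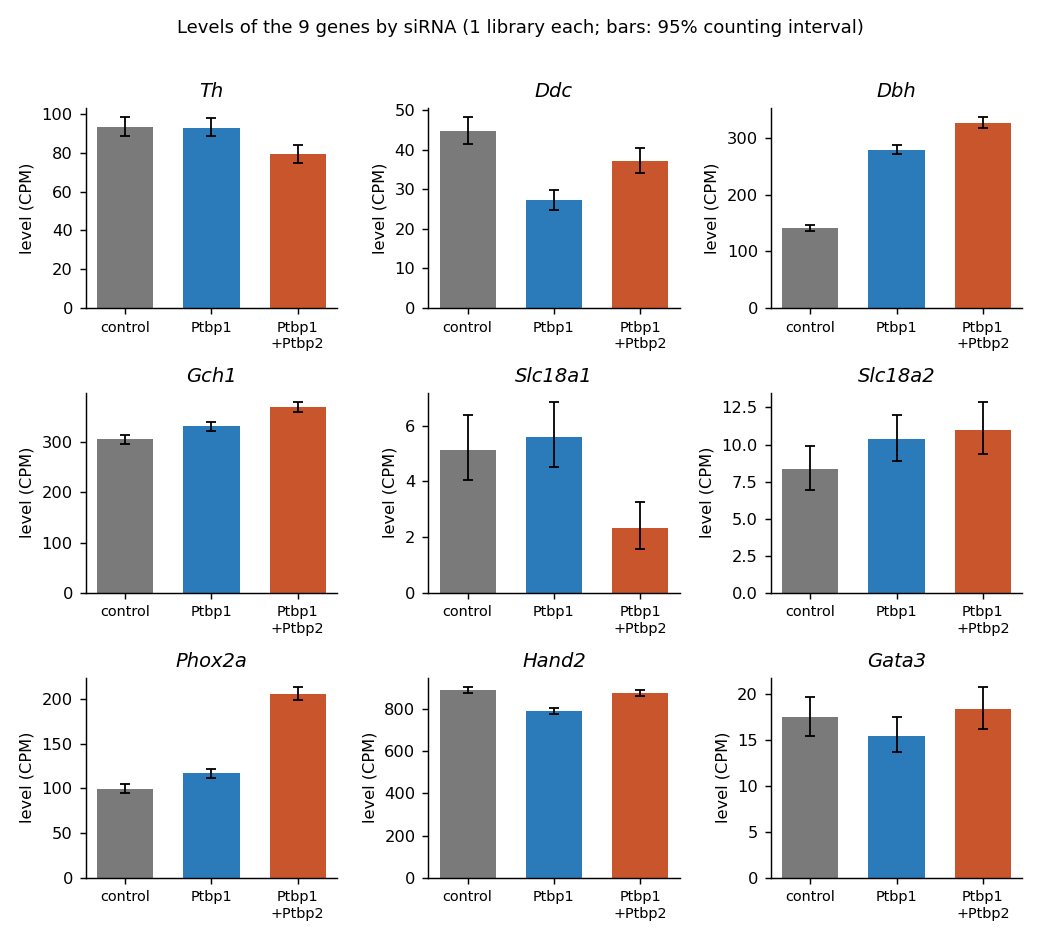
Level of each of the 9 genes (y axis, CPM, from 0) in the control, Ptbp1 siRNA and Ptbp1 plus Ptbp2 siRNA libraries (x axis), 1 library per bar, with exact 95% Poisson intervals for counting error. Dbh goes from 141 to 279 and 327 CPM, Phox2a from 99.7 to 117 and 206 CPM, and Th stays between 79.3 and 93.4 CPM.

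Per exonic length, the genes covered a wide range of levels in the control library. By the authors' RPKM (reads per kilobase of exon, scaled to library size), Hand2 was the highest at 252, followed by Gch1 at 69.8, Phox2a at 46.1, Dbh at 39.0 and Th at 33.6. Ddc stood at 13.05, Gata3 at 3.44, Slc18a2 at 1.54 and Slc18a1 at 0.607. Neighbours in this order differed beyond counting error at each of its 8 steps, the smallest being Dbh over Th at 1.16-fold (1.09 to 1.24). Whether cultures would keep this order was not tested, as there is no replicate. In the Ptbp1 siRNA library Dbh moved up to rank 2, at 81.0 RPKM beside 79.3 for Gch1, and these neighbours did not differ beyond counting error (1.02-fold, 0.983 to 1.06). In the double siRNA library Phox2a, at 99.8 RPKM, and Dbh, at 94.9, stood above Gch1, at 88.4. Th was at rank 5 in each of the 3 libraries, and Slc18a2 and Slc18a1 came last in each.

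Dbh (chromosome 2, 27021028 to 27038725 of the mm9 build, plus strand) encodes the enzyme that separates noradrenergic from dopaminergic cells. Its reads numbered 2153 with control siRNA, 4743 with Ptbp1 siRNA and 4671 with both. The level was lowest in the control, and most of the difference was already there with Ptbp1 siRNA alone. Dbh was 1.98-fold higher after Ptbp1 siRNA (1.88 to 2.09), with a log2 difference of 0.98 that lay just under the size for a call. It ranked 40 of 13281 from the top. After both siRNAs it was 2.32-fold higher than the control (2.20 to 2.44), a log2 difference of 1.21 and rank 57 of 13301. The step from Ptbp1 siRNA to both siRNAs was 1.17-fold (1.12 to 1.22). With scaling by library totals, or by the totals behind the deposited RPKM, the difference after Ptbp1 siRNA reached 1.05 and 1.04 and was called.

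Th (chromosome 7, 150078682 to 150085872, minus strand) had 1426, 1581 and 1133 reads in the control, Ptbp1 siRNA and double siRNA libraries. Its level after Ptbp1 siRNA was within counting error of the control (1.00-fold lower, 0.933 to 1.08). The double siRNA library was 1.18-fold below the control (1.09 to 1.27), far from the size for a call. Th and Dbh thus parted within the same libraries, a comparison that needs no scaling. The Dbh to Th ratio of RPKM was 1.16 in the control, 2.31 after Ptbp1 siRNA and 3.17 after both. Against the control the ratio was 1.99-fold higher after Ptbp1 siRNA (1.82 to 2.17) and 2.73-fold higher after both (2.48 to 3.00), and it was 1.37-fold higher after both than after Ptbp1 siRNA (1.26 to 1.4997).

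Ddc (chromosome 11, 11714107 to 11798104, minus strand) had 683, 463 and 532 reads. The control was the highest library and Ptbp1 siRNA the lowest. Ddc was 1.64-fold lower after Ptbp1 siRNA (1.46 to 1.85), rank 264 of 13281 from the bottom, and 1.20-fold lower after both (1.07 to 1.35). It was 1.37-fold higher after both siRNAs than after Ptbp1 siRNA alone (1.20 to 1.55), a log2 difference of 0.44. Its pattern was therefore unlike that of its neighbours in the chain: the Th to Ddc ratio of RPKM was 2.57, 4.21 and 2.63, and the Dbh to Ddc ratio was 2.99, 9.72 and 8.33. The Th to Ddc ratio after both siRNAs did not differ from the control beyond counting error (1.02-fold, 0.887 to 1.17).

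Gch1 (chromosome 14, 47773571 to 47809078, minus strand), the GTP cyclohydrolase gene, had 4662, 5624 and 5271 reads. It was 1.08-fold higher after Ptbp1 siRNA (1.04 to 1.13) and 1.21-fold higher after both (1.16 to 1.26). Both differences exceed counting error and neither is near the size for a call.

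The vesicular transporter genes were the least abundant of the 9. Slc18a2 (VMAT2, the neuronal form, chromosome 19, 59335418 to 59370168, plus strand) had 127, 176 and 157 reads. It was 1.25-fold higher after Ptbp1 siRNA, with an interval that holds 1 (0.986 to 1.58), and 1.32-fold higher after both (1.04 to 1.68). Slc18a1 (VMAT1, the form of neuroendocrine cells, chromosome 8, 71561608 to 71613122, minus strand) had 78, 95 and 33 reads, so the double siRNA library was the lowest. In that library Slc18a1 was 2.21-fold below the control (1.45 to 3.43) and 2.42-fold below the Ptbp1 siRNA library (1.61 to 3.72). On the log2(CPM + 1) scale, which shrinks the differences of low genes, these were -0.88 and -0.99 and not called. With a pseudocount of 0.1 CPM they were -1.11 and -1.24 and were called lower, and with 5 CPM they were -0.47 and -0.54. The difference between the knockdown libraries was rank 49 of 13336 from the bottom. The Slc18a2 to Slc18a1 ratio of RPKM was 2.53, 2.88 and 7.39, and in the double siRNA library it was 2.91-fold above the control (1.79 to 4.83).

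Of the transcription factor genes, Phox2a (chromosome 7, 108967005 to 108971175, plus strand) had 1522, 1982 and 2940 reads. The double siRNA library stood above both others. Phox2a was 1.17-fold higher after Ptbp1 siRNA (1.09 to 1.25) and was called higher after both siRNAs, 2.06-fold above the control (1.94 to 2.20) with a log2 difference of 1.04. Between the knockdown libraries it was 1.76-fold higher after both (1.67 to 1.87), rank 51 of 13336 from the top. Dbh, by contrast, had its larger step with Ptbp1 siRNA alone. The 3' end of Phox2a faces Inppl1 on the other strand, and the libraries do not mark strand. In the trimmed cluster that was counted, 29 of 1366 exon bases (2.12%) are shared with Inppl1, whose own log2 differences from the control were -0.07 and 0.01. Within the libraries, the Phox2a to Hand2 ratio of RPKM was 0.183, 0.241 and 0.384, and after both siRNAs it was 2.09-fold above the control (1.96 to 2.24).

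Hand2 (chromosome 8, 59799781 to 59803315, plus strand), a basic helix-loop-helix factor gene, had 13586, 13451 and 12542 reads. It was 1.12-fold lower after Ptbp1 siRNA (1.10 to 1.15) and within counting error of the control after both (1.01-fold lower, 0.989 to 1.04). Gata3 (chromosome 2, 9778706 to 9800228, minus strand), a zinc finger factor gene, had 267, 263 and 263 reads. Its intervals held 1 in each of the 3 comparisons, and its log2 differences were -0.17, 0.07 and 0.24. Gata2, its paralogue, was 16.0 times as abundant per length as Gata3 in the control library. About 4.35% of the Gata3 exon bases inside the cluster are shared with Gm13256 on the other strand.

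**Figure D2:**
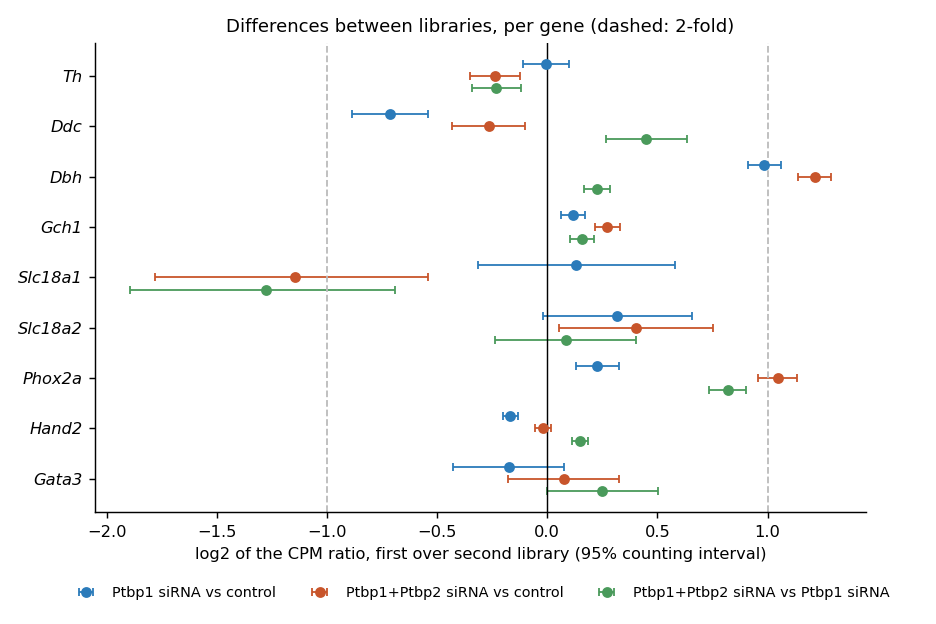
Log2 of the CPM ratio of the 9 genes (x axis, no pseudocount) for Ptbp1 siRNA against control, both siRNAs against control and both against Ptbp1 siRNA, with 95% counting intervals as bars and 2-fold as dashed lines. Dbh sits at 1.98-fold and 2.32-fold above the control, Phox2a reaches 2.06-fold only with both siRNAs, and the wide intervals of Slc18a1 lie below 0 in the comparisons of both siRNAs.

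**Figure D3:**
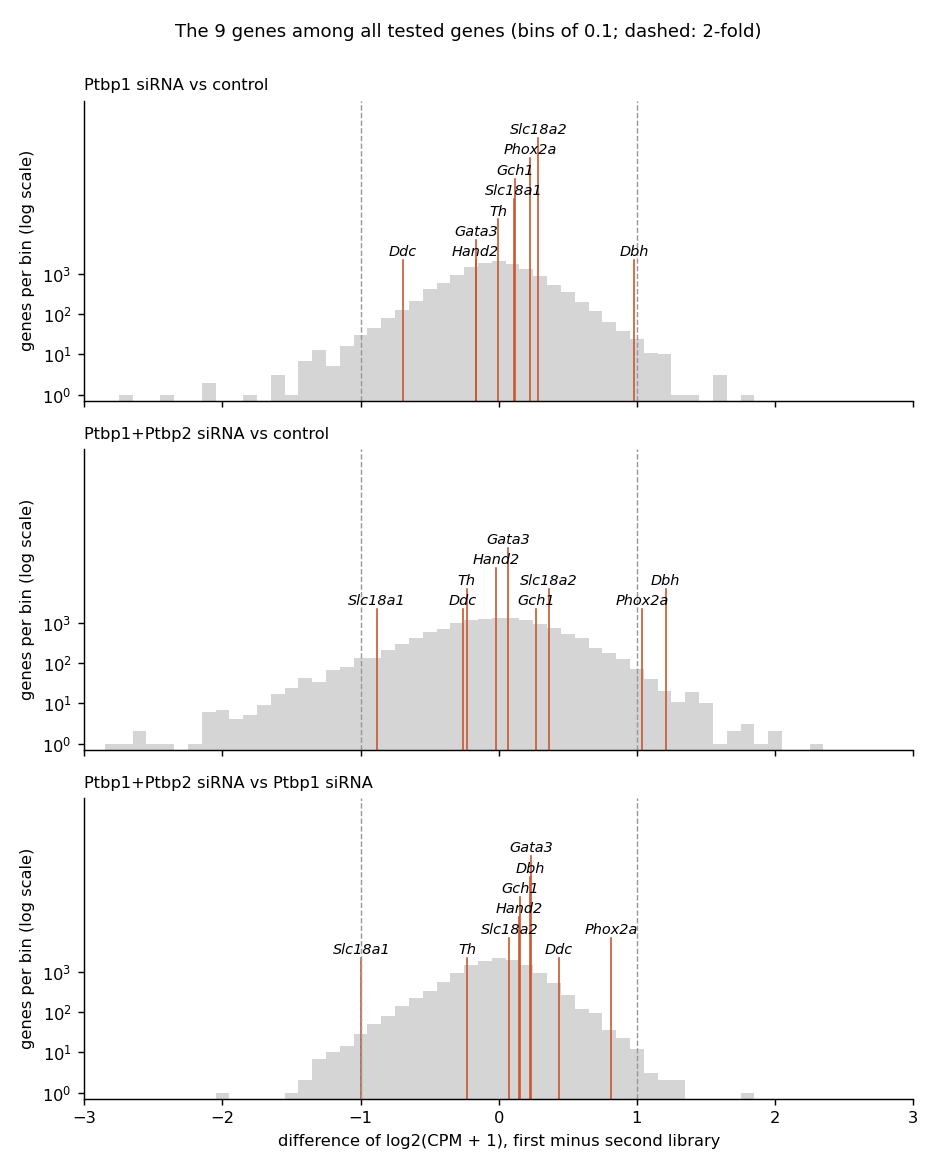
Number of tested genes (y axis, log scale) by difference of log2(CPM + 1) (x axis, bins of 0.1) in each comparison, with the 9 genes marked by red lines whose heights only keep the names apart. In the panel of both siRNAs against control, Dbh at 1.21 and Phox2a at 1.04 lie beyond the dashed 2-fold line and the other 7 do not.

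The promoters of Dbh, Th and Phox2a are shown because Dbh and Phox2a were called and Th, regulated by the same factors, was not. The sequences are the 250 bases before the annotated start, from RefSeq on the GRCm38.p6 build, where 8 of the 9 genes had an entry. Capitals mark TAAT, the core of many homeodomain sites, read on both strands, and TGACGTCA, the palindromic cyclic AMP response element. Dbh promoters are known for paired homeodomain sites bound by Phox2a, and Th promoters for a cyclic AMP response element.

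Dbh (chr2:27165257-27165506, plus strand): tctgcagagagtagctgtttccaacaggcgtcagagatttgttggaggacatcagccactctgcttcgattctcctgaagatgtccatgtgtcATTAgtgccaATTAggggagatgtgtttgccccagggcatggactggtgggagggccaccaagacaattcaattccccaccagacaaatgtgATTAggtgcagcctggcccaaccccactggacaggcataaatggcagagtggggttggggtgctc
Th (chr7:142899996-142900245, minus strand): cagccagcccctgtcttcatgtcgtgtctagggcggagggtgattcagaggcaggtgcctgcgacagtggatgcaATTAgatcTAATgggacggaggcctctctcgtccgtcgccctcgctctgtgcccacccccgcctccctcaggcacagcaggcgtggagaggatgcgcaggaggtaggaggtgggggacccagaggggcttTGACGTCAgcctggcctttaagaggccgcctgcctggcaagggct
Phox2a (chr7:101818063-101818312, plus strand): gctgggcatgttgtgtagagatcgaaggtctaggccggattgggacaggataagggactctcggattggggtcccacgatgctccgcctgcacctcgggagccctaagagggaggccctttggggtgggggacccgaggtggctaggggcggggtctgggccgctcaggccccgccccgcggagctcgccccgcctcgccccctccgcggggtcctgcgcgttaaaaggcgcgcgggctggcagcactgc

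Dbh held 3 copies of TAAT, which begin 157, 147 and 65 bases before the start, and no TGACGTCA. Th held 2 copies of TAAT, 175 and 167 bases before the start, and 1 TGACGTCA at 45. Phox2a held neither in this window, whose bases were 70.4% G or C. Hand2, which was not called, held 5 copies of TAAT, the most of any entry of these genes, and the 2 entries of Ddc, also not called, held 3 and 2. Slc18a2 held 1, and Gch1 and Gata3 none. Among 32851 promoter windows of the same length 54.9% held TAAT at least once, 17.3% held 3 or more copies and 1.55% held TGACGTCA. These matches describe the letters and do not show that a factor was bound. Whether they relate to the calls was not tested.

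Intron ends are shown because the title of the series names intron retention, and Ptbp1 is known to bind pyrimidine tracts near splice acceptors. The last 100 bases of introns were read from the NCBIM37 (mm9) genome on the transcribed strand, with capitals at any of 3 hexamers that may overlap each other. They were CTCTCT and also TTCTCT and also TCTTTC. Intron 9 of Dbh has such a run close to the acceptor, intron 2 of Th has more matches than any other window of the 9 genes, and intron 2 of Phox2a none. They were picked after the matches were seen.

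Dbh intron 9 (chr2:27036397-27036496, plus strand): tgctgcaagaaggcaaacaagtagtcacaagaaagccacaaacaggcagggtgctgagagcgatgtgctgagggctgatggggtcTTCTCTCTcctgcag
Th intron 2 (chr7:150083008-150083107, minus strand): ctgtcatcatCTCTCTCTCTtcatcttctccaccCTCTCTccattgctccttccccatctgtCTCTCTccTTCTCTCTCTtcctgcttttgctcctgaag
Phox2a intron 2 (chr7:108970122-108970221, plus strand): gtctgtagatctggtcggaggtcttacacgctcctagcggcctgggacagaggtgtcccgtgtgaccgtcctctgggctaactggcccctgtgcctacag

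At least 1 of the 3 motifs was found in 6 of 11 such windows of Dbh, 5 of 11 of Th, 4 of 14 of Ddc and 0 of 2 of Phox2a, and in 26 of 77 over the 9 genes. The share over 175902 introns of coding genes was 30.2%. The window of Th intron 2 was 85% pyrimidine, that of Dbh intron 9 40% and that of Phox2a intron 2 54%. The median over all introns was 55%. The deposited values are totals per gene, so retention of these introns was not measured here.

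The genes around the pathway were read from lists of related genes, without the 9 members. The lists also include genes of other transmitter types and markers of other cell types. Over all lists, 142 further genes had a row. Of the 87 tested after both siRNAs against the control 4 were called higher and 2 lower, with a median difference of 0.05. Among them Slc18a3, Bche and Col1a1 come from the lists of other transmitter and cell types. Over all tested genes 3.78% were called (1.07% higher and 2.71% lower). After Ptbp1 siRNA 0 of 86 were called, beside 0.738% of all tested genes.

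Tetrahydrobiopterin genes, which make and recycle the cofactor of tyrosine hydroxylase, had 0 of 8 called after both siRNAs and a median of 0.10. Pts, the second enzyme of cofactor synthesis, was at 0.53 (92, 116 and 131 reads). Qdpr, which regenerates the cofactor, was at -0.49 (1362, 1149 and 901 reads). These differed in sign.

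Other catecholamine enzymes and transporters had 0 of 7 tested genes called, with a median of -0.07. Maoa, which encodes a monoamine oxidase, had 720, 882 and 720 reads. Slc29a4, a low-affinity monoamine transporter gene, was at 0.15, and the aldehyde dehydrogenase genes Aldh3a2 and Aldh2 and the aldose reductase gene Akr1b3 were at -0.30, -0.27 and -0.22. The other 7 genes of the list had at most 3 reads in any library. Among them Slc6a2, the noradrenaline transporter gene and a defining marker of noradrenergic neurons, had 0, 1 and 0 reads, and Pnmt, which makes adrenaline, had 0 in each. A count of 0 allows up to 3 reads, or 0.197 CPM in the control library. The CAD libraries therefore held RNA of the noradrenaline-making enzymes and of Phox2a and Hand2, but reads of the reuptake transporter were at or near 0.

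Copper and ascorbate genes, which supply the cofactors of dopamine beta-hydroxylase, had 0 of 8 called and a median of -0.29 after both siRNAs. Slc31a1, the copper uptake transporter gene, had 1923, 1375 and 1057 reads and was 1.70-fold lower (1.58 to 1.84). Ccs, a copper chaperone gene, was at -0.67 and Atp7b, a copper pump gene, at -0.57, while the ascorbate transporter gene Slc23a2 was at 0.52. Cyb561, the gene of the granule cytochrome that passes electrons to ascorbate, was at 0.08.

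Genes of partners and regulators of tyrosine hydroxylase had 0 of 14 called and a median of 0.05. Egr1, an activity-dependent factor gene, was at 0.74 (477, 700 and 755 reads). Sncb, Pcbp1 and Ywhah, which encode beta-synuclein, an RNA-binding protein and a 14-3-3 protein, were at -0.49, -0.45 and -0.43.

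Among other sympathoadrenal transcription factors 1 of 17 tested genes was called after both siRNAs, and the median was 0.10. Tbx2, a T-box repressor gene, had 500, 804 and 1248 reads and was 2.67-fold higher (2.40 to 2.97), so each siRNA library was above the control. Insm1, a zinc finger factor gene of neuroendocrine cells, had 300, 310 and 542 reads. It was called higher in the double siRNA library against Ptbp1 siRNA (2.08-fold, 1.80 to 2.40), and was 1.93-fold above the control (1.67 to 2.23), which was not called. Like Phox2a, Insm1 was highest in the library with both siRNAs. Unlike Phox2a, it was within counting error of the control after Ptbp1 siRNA (1.08-fold lower, 0.915 to 1.27). Klf7 and Tfap2a were at -0.64 and -0.59. Of all annotated Klf7 exon bases, in or outside the counted cluster, 39.4% are shared with other annotated genes. The same measure is 26.1% for Phox2a and 5.83% for Gata3, for which shares inside the cluster are given above.

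Of the catecholamine receptor genes 8 of 14 had at most 3 reads in any library. Drd1a, the D1 dopamine receptor gene, had 121, 72 and 27 reads and was called lower after both siRNAs, by 4.19-fold (2.74 to 6.62). Adra2a, an alpha-2 adrenergic receptor gene, had 3, 12 and 21 reads and was 7.48-fold higher (2.23 to 39.2), a value that rests on very few reads. Adra2b, the most abundant of them, had 506, 470 and 519 reads. Receptors of the sympathetic growth factors had 0 of 9 tested genes called, with Gfra2 at 0.88, Ngfr at 0.45, Bmpr1b at 0.36 and Gfra1 at -0.30. Ret, the gene of the GDNF family receptor kinase, had 22036, 26813 and 24618 reads and was at 0.26.

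**Figure D4:**
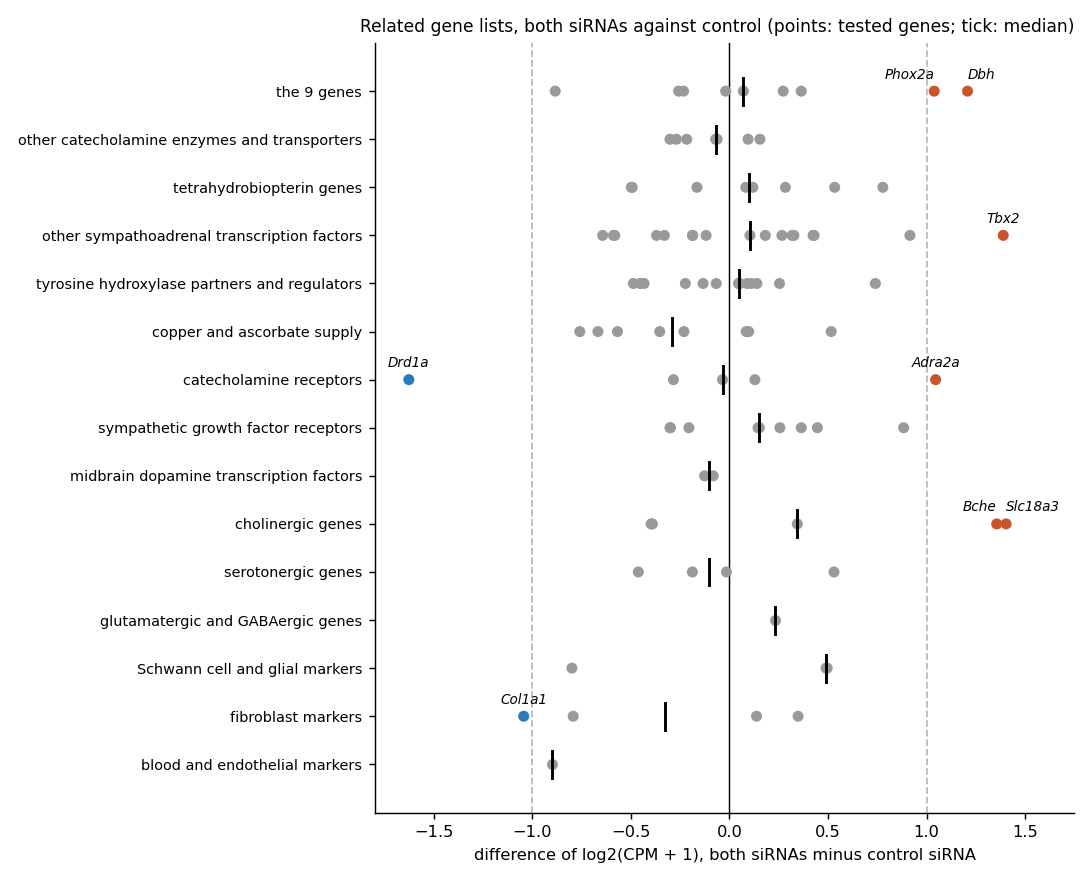
Difference of log2(CPM + 1) between both siRNAs and control (x axis) for each tested gene of the related lists (rows), with the median of each list as a black tick, genes called higher in orange and genes called lower in blue. Dbh, Phox2a, Tbx2, Adra2a, Slc18a3 and Bche lie above the 2-fold line and Drd1a and Col1a1 below it, while the list medians stay between -0.90 and 0.49.

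Genes with the most similar pair of differences from the control were sought among 10060 genes with at least 200 reads over the 3 libraries, by Euclidean distance in log2 units. For Dbh these were Tagln3 (distance 0.11), Id3 (0.12) and Fam120c (0.15), with 330, 780 and 778 reads for Tagln3. For Phox2a they were Tln2 (0.06), Trpc7 (0.08) and Slco3a1 (0.08), with 1078, 1442 and 2013 reads for Tln2. For Th they were Pfkm, Phf20 and Cyth2, all within 0.01. With 3 libraries such likeness rests on 2 differences per gene that share the control, and it is a description only.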

How the data were processed

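The deposited table holds reads and RPKM for 27389 trimmed gene clusters of mm9, per the file headers (the submitters' processing notes name the same build). The aligner and counter are not given in the sources used here. Read values are net numbers: 38 clusters fell below 0 in at least 1 library (lowest -65) and what the authors subtracted is not stated. These and 127 clusters without length were left out, and the rest treated as counts, which makes intervals approximate. The authors' RPKM divide by totals of 24167120, 25649604 and 21572838. Whether a value counts reads or pairs is not stated.

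Clusters were named by alias and position in GENCODE M1, with the highest row kept per symbol. Scaling used trimmed means of M values (30% and 5% trimmed, factors 0.968, 1.02 and 1.01; numpy 2.4.6). Levels are CPM, folds are CPM ratios with exact 95% conditional binomial intervals (scipy 1.17.1), and differences use log2(CPM + 1). Ratios of 2 genes were compared by the conditional odds ratio. The calls were tested on simulated Poisson counts for the comparison of both siRNAs with control. There 100 of 100 genes changed 3-fold and 0 of 100 changed 1.5-fold were called among 13231. Only genes with a mean of at least 5 CPM were changed, so changes in lower genes were not covered. Variation between cultures was not simulated.

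The 9 genes and the lists were chosen with earlier results of these data known. Genes named were the members, Ptbp1 and Ptbp2, in each list up to 4 with the largest difference after both siRNAs and every called gene, and the 3 nearest patterns; some genes the rule names are not reported here. Named outside this rule were a paralogue, overlapping genes, genes at or near 0, and Maoa, Cyb561, Ret and Adra2b. Alternatives were other scalings, pseudocounts, filters, size limits and summed rows.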

Additional observations from a re-analysis of the deposited data

How the results depend on the processing

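No paired analysis was possible because each group had 1 library. Dbh and Phox2a were called higher after both siRNAs under each scaling, pseudocount and filter, at log2 differences of 1.19 to 1.28 and 1.01 to 1.11, and neither at a 3-fold limit, where 0 of the 9 genes were called. After Ptbp1 siRNA 1 of the 9 was called with library totals or the totals behind the deposited RPKM, and 2 at a 1.5-fold limit. Between the knockdown libraries 1 was called with library totals or a pseudocount of 0.1 CPM, and 2 at 1.5-fold. No sign changed except for Th after Ptbp1 siRNA and Hand2 after both, each near 0 and each under 2 scalings.

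Over all genes, 98, 503 and 60 were called in the 3 comparisons (Ptbp1 siRNA and both siRNAs against control, both against Ptbp1 siRNA). They became 304, 880 and 256 with a pseudocount of 0.1 CPM, 30, 224 and 10 with 5 CPM, 861, 2300 and 725 at 1.5-fold and 9, 58 and 2 at 3-fold. In the last comparison they were 39 with the RPKM totals and 38 with a filter of 5 CPM. Library totals changed the split of 37 higher and 61 lower to 50 and 48, and that of 142 and 361 to 193 and 286. Called genes of the related lists numbered 0, 6 and 1. They became 1 and 6 in the first and last comparison with 0.1 CPM, 2 and 0 in the others with 5 CPM, 7, 17 and 11 at 1.5-fold, and 1 and 0 in the others at 3-fold. The last was also 0 with the RPKM totals. Slc18a1 was called lower or not according to the pseudocount, and in the last comparison also the scaling. What depth limits was not tested.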

Other observations

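Genes of other transmitter types were also present in these libraries. Slc18a3, the vesicular acetylcholine transporter gene, had 233, 432 and 600 reads in the control, Ptbp1 siRNA and double siRNA libraries and was called higher after both siRNAs, 2.75-fold above the control (2.36 to 3.22). Bche, the butyrylcholinesterase gene, had 78, 128 and 209 reads and was called higher as well (2.86-fold, 2.20 to 3.76). They were the 2 called of 5 tested cholinergic genes, where 3.78% of all tested genes were called (1.07% higher and 2.71% lower). The other tested cholinergic genes were not called: Ache was at 0.34, Chat at -0.39 and Lhx3 at -0.40 after both siRNAs. Slc18a3 lies inside the Chat locus, and Chat itself, which encodes the enzyme that makes acetylcholine, had 44, 46 and 28 reads. Slc5a7, the choline transporter gene of cholinergic neurons, had 2, 1 and 1.

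Of the midbrain dopamine factors 2 of 9 were tested, Nr4a2 at -0.08 and Foxa1 at -0.13 after both siRNAs, and Lmx1b and En2 had 0 reads in each library. Of the serotonergic genes 0 of 4 tested were called, with Fev at 0.53 and Tph2 at -0.46, and Slc6a4 had 0 reads in each library. Of the glutamatergic and GABAergic genes Slc32a1 alone was tested, at 0.23, and Slc17a6 had 0 reads in each library. Summed levels of the fibroblast list were 16.7, 16.1 and 10.7 CPM, with Col1a1 called lower after both siRNAs (2.38-fold, 1.69 to 3.39) and Col1a2 at 0 reads in each library. The other tested fibroblast markers were not called: Pdgfrb was at -0.79, Pdgfra at 0.14 and Thy1 at 0.35 (32, 68 and 42 reads). Schwann cell and glial markers summed to 20.2, 19.5 and 15.5 CPM, mostly from Erbb3 at -0.80, while Foxd3 was at 0.50. Blood and endothelial markers summed to 22.9, 17.3 and 12.2 CPM, mostly from Pecam1 at -0.90. The part of these markers in the results was not tested.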
